A study of Rattus norvegicus with 10 samples.

Results

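Caspases are the proteases that carry out apoptosis, and the proteins of the Bcl-2 family decide upstream of them whether mitochondria release the factors that switch them on. The genes described here are 39 caspase and Bcl-2 family apoptosis genes of the rat, read by 56 probe sets. The 31042 probe sets analysed cover 14217 genes with a probe set of a single symbol. The 39 genes were taken by gene symbol with no cutoff on measured values, though the choice was made with earlier results of these data known. The members are numbered caspases other than Casp1, symbols that begin with Bcl2 or with Birc and a number, and 20 further genes of the same machinery. Of those 20, Pmaip1 and Cycs were not analysed here. All 10 arrays, Affymetrix GeneChips of the rat genome, were of resident peritoneal macrophages from Hsdcpb:WU rats, with 5 samples of control macrophages and 5 of macrophages that had taken up myelin (mye-macrophages). Over 3 days of culture, mye-macrophages received brain myelin at 100 µg/ml, which was then washed off, and control macrophages received none. IFNγ and IL-1β, at 100 ng/ml, were then given to both groups for 9 hours, so that no sample shows the level of these genes without the cytokines. The age of the rats, the number of rats behind a sample and the origin of the replicates are not given in the sources used here, so that the p-values measure only the spread between these samples, which may be technical.

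In the extrinsic pathway, ligands such as TNF engage death receptors, the adaptors Tradd and Fadd recruit caspase-8, and Cflar, a catalytically inactive relative of caspase-8, holds it in check. In the intrinsic pathway, BH3-only proteins such as Bim (Bcl2l11), Bad and Bid bind the pro-survival proteins Bcl-2, Bcl-xL (Bcl2l1), Mcl-1 and A1 (Bcl2a1) or activate the pore-forming proteins Bax and Bak. The pores release cytochrome c and Smac (Diablo), the first assembles the Apaf1 and caspase-9 apoptosome, and the second lifts the inhibition of caspases by XIAP. In macrophages, inflammatory signals through NF-κB are known to induce several of the pro-survival genes, among them Bcl2a1, Birc3 and Cflar.

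The promoters of 3 members are shown because these members stood at the ends of the comparison: Bcl2l11 held the one probe set that passed the test, Casp9 the one whose groups did not overlap, and Bcl2a1 had the lowest p among the members with a higher mean in mye-macrophages. Each sequence is the 250 bases before the annotated start in RefSeq (GRCr8, plus strand), and 29 of the 39 genes had an entry. Capitals mark matches to GTAAACA (a forkhead motif as read by FOXO factors), TGANTCA (AP-1) or GGGCGG (a GC box), which were searched on both strands, and no matches overlapped.
Bcl2l11, chr3:135819792-135820041: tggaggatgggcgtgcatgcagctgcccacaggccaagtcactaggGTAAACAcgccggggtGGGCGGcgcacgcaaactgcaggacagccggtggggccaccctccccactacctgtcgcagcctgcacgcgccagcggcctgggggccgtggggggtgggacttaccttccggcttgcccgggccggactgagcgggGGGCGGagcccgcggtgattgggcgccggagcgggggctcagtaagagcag
Casp9, chr5:159391824-159392073: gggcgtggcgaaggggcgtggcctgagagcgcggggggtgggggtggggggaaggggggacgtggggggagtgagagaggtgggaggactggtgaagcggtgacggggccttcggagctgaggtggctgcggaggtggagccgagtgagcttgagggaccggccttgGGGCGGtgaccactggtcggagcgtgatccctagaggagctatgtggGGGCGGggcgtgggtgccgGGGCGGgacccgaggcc
Bcl2a1, chr8:98596556-98596805: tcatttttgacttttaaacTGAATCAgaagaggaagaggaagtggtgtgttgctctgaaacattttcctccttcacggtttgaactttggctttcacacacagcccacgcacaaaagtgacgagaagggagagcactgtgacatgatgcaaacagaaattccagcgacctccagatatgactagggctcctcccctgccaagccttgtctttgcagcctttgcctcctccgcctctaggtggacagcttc
The Bcl2l11 window held 1 forkhead match, with its first base 204 bases before the start, and 2 GC boxes. The Casp9 window held 3 GC boxes and no match to the other motifs, and the Bcl2a1 window held 1 AP-1 match alone. Over all 33469 promoters of this length, 3.21% held the forkhead letters, 6.34% the AP-1 letters and 30.5% the GC box. Among the members these were 3 genes (Bad, Bcl2l11 and Casp12), 3 genes (Bcl2a1, Birc2 and Diablo) and 17 genes. A match describes the letters and does not show that a factor binds there.

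The deposited values are log2 signals after RMA, with medians of 2.30 to 2.35 per array, which are low for such values, and the correlation between arrays was at least 0.975. A level was therefore read only against the other samples on the same probe set. Of 8 macrophage markers, 7 lay above the median of all values (Cd163 did not), with list means of 7.35 to 8.18 in control macrophages and 7.39 to 8.40 in mye-macrophages. Lyz2, Cd68 and Cd163 lay outside the variance filter described below and were not tested, and the other macrophage markers did not pass. No tested marker passed among those of T, B and NK cells (6 of 8 measured, list means of 2.10 to 2.70 in control and 1.92 to 2.95 in mye-macrophages), of granulocytes and mast cells (5 of 7, 1.55 to 4.07 and 1.71 to 4.12) and of mesothelial cells and fibroblasts (5 of 6, 1.59 to 2.42 and 1.60 to 2.50). The fibroblast gene Col3a1, and Mog and Mag of the next list, lay outside the filter and were not tested. Of 5 measured oligodendrocyte and myelin genes, Mobp and Bcas1 rose in mye-macrophages (list means of 2.45 to 3.20 against 3.36 to 4.24), and the part of this RNA in the results below was not tested. As a measure of RNA integrity, the 3 prime probe set of beta-actin exceeded its 5 prime probe set by 3.02 ± 0.30 in control macrophages and 3.30 ± 0.32 in mye-macrophages (SD, n = 5 each), wider in 4 of 5 pairs (two-sided exact sign-flip permutation test, p = 0.188, where 5 pairs allow no less than 0.0625). Control and mye-macrophage samples that share a replicate number shifted alike around their group means, so they were compared as pairs with the number as a block in limma.

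Most caspase and Bcl-2 family genes differed little between mye-macrophages and control macrophages. Of the 36 member probe sets among the 15521 with the larger interquartile range, over which p-values were adjusted, 1 passed at an adjusted p under 0.05 and 35 did not. This is 2.78% of the members, beside 2.69% of all 15521 probe sets in either direction and 1.90% that passed as lower, so that the share was near the background. The probe set that passed reads Bcl2l11, and it fell in mye-macrophages. The other 20 member probe sets lay outside this variance filter and are given by their fold change only. The log2 fold changes of the 56 probe sets ranged from -0.47 to 0.27, 26 of them above 0 and 30 below, and 34 were smaller than 0.1 in size. Taking 1 probe set per gene, the median was -0.0068 over the 39 genes and 0.0055 over all genes. For 54 of the 56 the 95% interval lay within a 1.5-fold change either way (96.4%, beside 96.7% of all probe sets). Larger differences in signal thus lay outside the intervals of nearly all members. Of the 56 probe sets, 38 lay above the median of all values. The intervals describe the array signal, and how far it follows the amount of RNA on the dimmer probe sets was not tested. In RNA from a whole culture, fewer cells that express a gene and less of its RNA per cell cannot be told apart.

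At an unadjusted p under 0.05, 8 of the 56 member probe sets (14.3%) differed in the blocked fit, 2 higher and 6 lower, beside 12.1% of all probe sets. In limma without the block no member and no other probe set passed after adjustment, the lowest adjusted p of a member being 0.565. Before adjustment, 5 of the 56 member probe sets were under 0.05 in that fit, all lower. Of all 31042 probe sets, 1385 (4.46%) were under 0.05, 730 of them lower. The difference had the same direction in all 5 pairs on 12 member probe sets (21.4%), 9 lower and 3 higher, while 13.0% of all probe sets did so. Those lower in 5 of 5 pairs read Bcl2l11 (on a pair of probe sets), Xiap, Casp9, Bid, Bad, Birc3, Diablo and Bcl2l12, and those higher read Bcl2a1, Aifm1 and Casp6. The groups did not overlap at all on 1 member probe set, beside 0.734% of all probe sets.

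**Figure D1:**
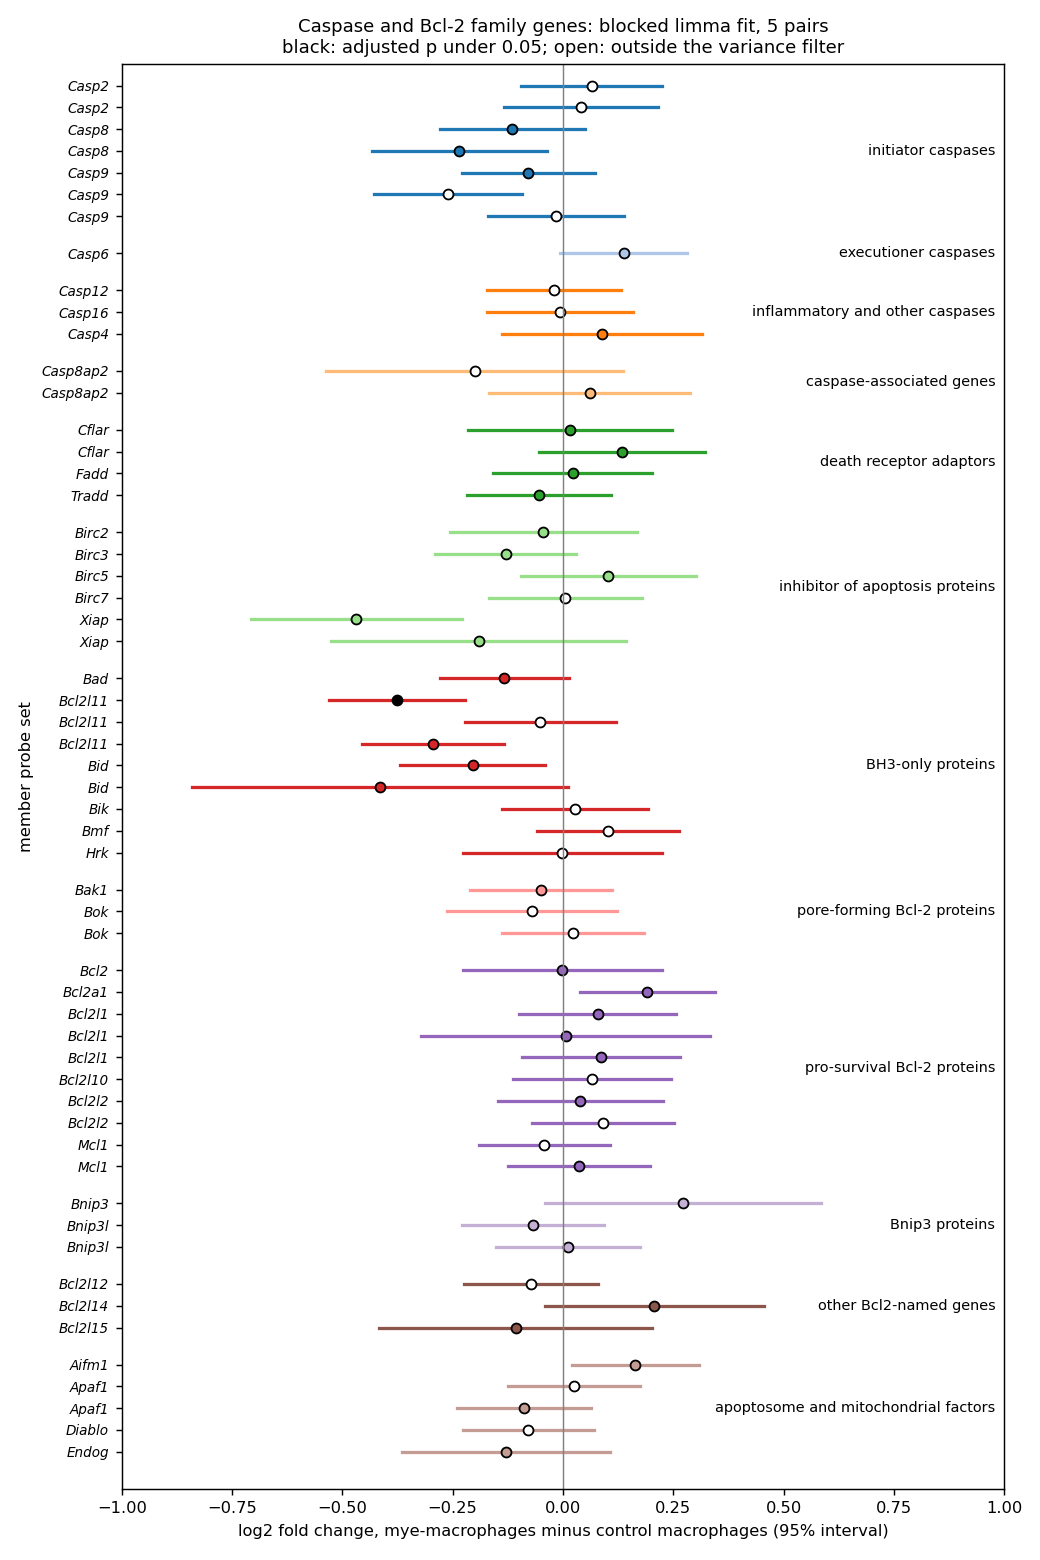
Log2 fold change (mye-macrophages minus control macrophages, horizontal axis) with its 95% interval from the blocked limma fit on 5 pairs, for each of the 56 member probe sets in groups of known role. The one black point, a Bcl2l11 probe set at -0.38, passed the test, open points lay outside the variance filter, and most intervals cross 0.

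The BH3-only genes held the lowest p of all members. Bcl2l11 encodes Bim, a BH3-only protein that binds all pro-survival Bcl-2 proteins and is known to drive the death of myeloid and lymphoid cells. On probe set 1388742_at it read 6.72, 7.49, 7.30, 6.46 and 7.22 in control replicates 1 to 5, and 6.20, 7.13, 6.93, 6.22 and 6.81 in mye-macrophage replicates 1 to 5. Each mye-macrophage sample lay below the control of its number, yet the groups overlapped widely, since replicates 1 and 4 were low in both. It fell by 0.38 on the log2 scale (standard error 0.07, 95% interval -0.53 to -0.22, adjusted p = 0.0280 in the blocked limma fit), or 1.30-fold. The fit without the block, in which the differences between replicate numbers count as error, gave an adjusted p of 0.878, and adjustment over all probe sets gave 0.0560. With this beta-actin gap added to the fit the difference was -0.33 with an adjusted p of 0.217 from limma, and over all alternatives the adjusted p ranged from 0.00205 to 0.996.

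The other probe sets of Bcl2l11 did not pass. Probe set 1387338_s_at, dim on every array, read 1.34, 1.54, 1.14, 1.07 and 1.27 in control replicates 1 to 5 and 0.89, 1.17, 0.99, 0.77 and 1.08 in mye-macrophages. It too was lower in 5 of 5 pairs, with a log2 difference of -0.29 (standard error 0.07, adjusted p = 0.0622 from limma). The remaining one, 1370787_at, lay outside the variance filter, with controls between 2.30 and 2.48 and mye-macrophages between 2.30 and 2.53, and showed -0.05 (95% interval -0.22 to 0.12). The probe sets of Bcl2l11 thus had the same sign and different sizes.

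Bid, which caspase-8 cleaves and which then carries the death receptor signal to mitochondria, was lower in 5 of 5 pairs on probe set 1377759_at without passing. It read 8.66, 8.70, 8.77, 8.39 and 8.65 in control replicates 1 to 5 and 8.23, 8.51, 8.63, 8.22 and 8.56 in mye-macrophages, a difference of -0.20 (standard error 0.07, adjusted p = 0.163). On 1369683_at the difference was -0.42 (95% interval -0.84 to 0.01, adjusted p = 0.257), with control values of 4.87, 4.87, 4.27, 4.56 and 4.43 and mye-macrophage values of 3.63, 4.24, 4.74, 4.27 and 4.04. Replicate 3 went the other way on this probe set, and replicate 1 had the widest gap. The difference on it was -0.64 without replicate 3 (adjusted p = 0.0439 in limma), -0.21 without replicate 1 (adjusted p = 0.583) and -0.0090 once the beta-actin gap was added (adjusted p = 0.990).

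Bad, a BH3-only protein that survival kinases inactivate by phosphorylation, was lower in 5 of 5 pairs by a small margin. Its control values of 7.97, 8.09, 7.76, 7.61 and 7.89 stood against 7.71, 7.96, 7.66, 7.52 and 7.81, a log2 difference of -0.13 (95% interval -0.28 to 0.01, adjusted p = 0.292). Bik, Bmf and Hrk, which code for further BH3-only proteins, lay outside the variance filter on their single probe sets. Of the 9 BH3-only probe sets of 6 genes, 5 were in the variance filter, of which 1 fell and none rose, beside the 1.90% of all filtered probe sets that fell. A difference below 0 stood on 7 of the 9, and on 15030 of all 31042 probe sets.

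**Figure D2:**
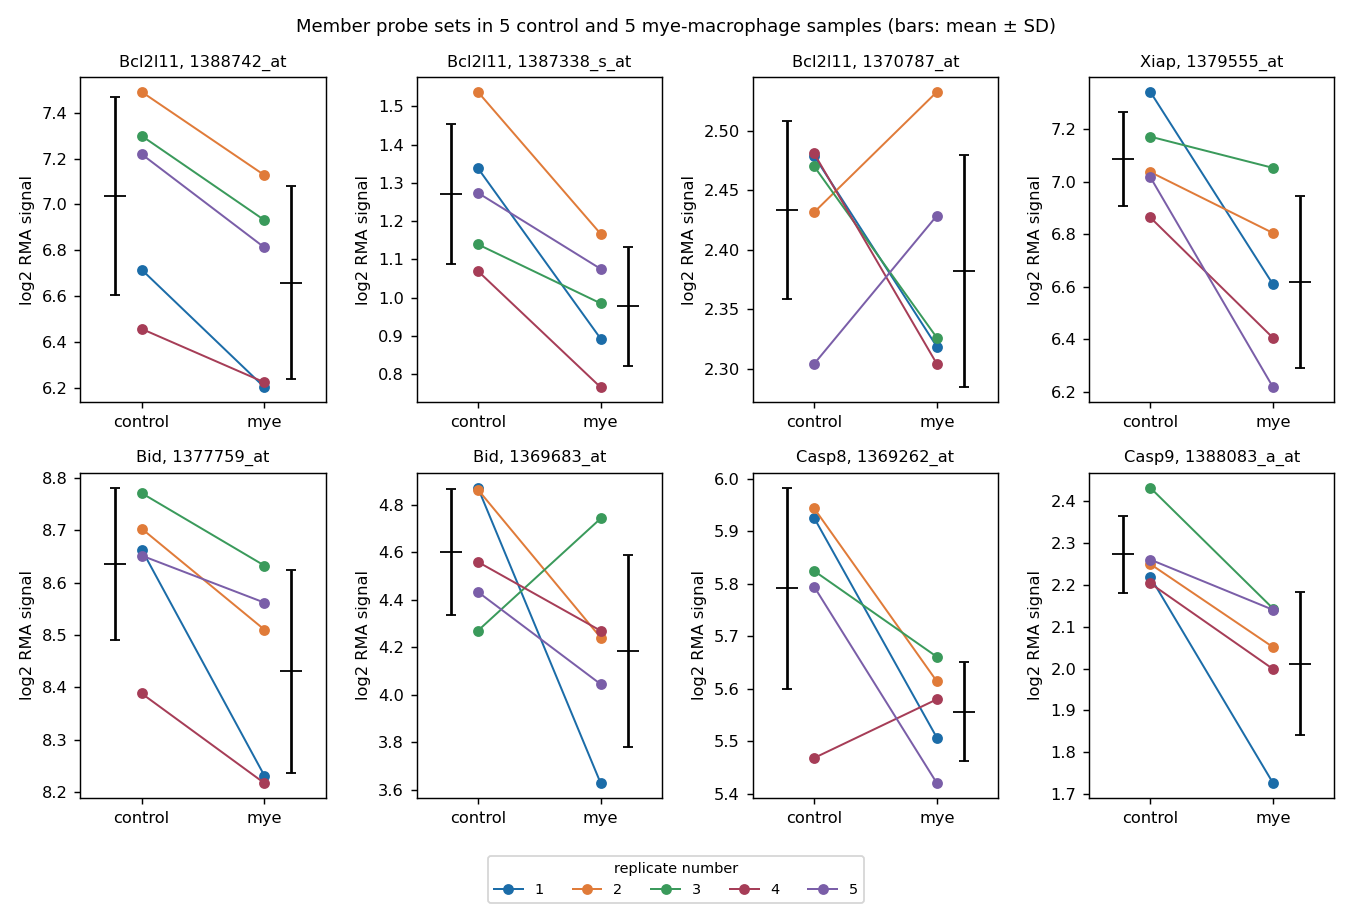
Log2 RMA signal (vertical axis, one scale per panel, not starting at 0) of 8 member probe sets in 5 control and 5 mye-macrophage samples, with lines joining samples of the same replicate number and bars giving mean ± SD. The lines of Bcl2l11 1388742_at all run downward over a wide spread between replicates, and only on Casp9 1388083_a_at do the groups not overlap.

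Of the 10 probe sets of pro-survival Bcl-2 genes, 7 were in the variance filter, and none of these passed. A difference above 0 stood on 8 of the 10, several of which read the same gene, and on 16012 of all 31042 probe sets. Bcl2a1 encodes A1, a pro-survival protein of blood cells induced by NF-κB. It read 10.79, 10.34, 10.77, 11.04 and 10.62 in control replicates 1 to 5 and 11.01, 10.67, 10.91, 11.12 and 10.80 in mye-macrophages. It was higher in 5 of 5 pairs, and the groups overlapped (log2 difference 0.19, 95% interval 0.04 to 0.34, adjusted p = 0.163). Mcl1, whose short-lived protein protects myeloid cells, showed 0.04 (95% interval -0.12 to 0.20) on 1370141_at and -0.04 (-0.19 to 0.11) on 1372520_at, the latter outside the variance filter. For Bcl2l1, which encodes Bcl-xL, the difference on 1370812_at was 0.08 (95% interval -0.10 to 0.26), and 0.0097 without replicate 2. Bcl2 and the Bcl2l2 probe set 1393707_at did not pass, while Bcl2l10 and the Bcl2l2 probe set 1369611_at lay outside the variance filter. The intervals over the whole group reached from -0.32 to 0.34. The pore-forming genes Bak1 and Bok showed differences between -0.07 and 0.02 on 3 probe sets.

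The initiator caspases, which start the cascade, had 5 of 7 probe sets below 0, beside 15030 of all 31042 probe sets. Of the 7, 3 were in the variance filter, and none of these passed. Casp2 lay outside the filter on each of its probe sets, with differences of 0.06 and 0.04. Casp8 on 1369262_at read 5.93, 5.94, 5.82, 5.47 and 5.79 in control replicates 1 to 5 and 5.51, 5.61, 5.66, 5.58 and 5.42 in mye-macrophages. It was lower in mye-macrophages in every pair but replicate 4, whose control was the lowest of its group, and the difference was -0.23 (standard error 0.09, adjusted p = 0.180). The second Casp8 probe set, 1380297_at, gave -0.12 (95% interval -0.28 to 0.05, adjusted p = 0.413). With the beta-actin gap added the values were -0.13 and -0.06.

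Casp9, the caspase of the apoptosome, was the one member with groups that did not overlap, on 1388083_a_at. Its control values of 2.22, 2.25, 2.43, 2.20 and 2.26 all lay above the mye-macrophage values of 1.73, 2.05, 2.14, 2.00 and 2.14. This probe set lay below the median of all values and outside the variance filter, with a log2 difference of -0.26 (standard error 0.07) and an adjusted p of 0.195 when adjusted over all probe sets. The other Casp9 probe sets gave -0.08 (95% interval -0.23 to 0.07) on 1368652_at and -0.02 (-0.17 to 0.14) on 1370737_at, the latter outside the variance filter. Only for 1370737_at did the sign turn when replicate 3 or replicate 4 was left out. Apaf1, the scaffold of the apoptosome, had probe sets of either sign. Of these, 1369198_at did not pass and 1369197_at lay outside the variance filter.

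Of the proteins that mitochondria release, Aifm1, a flavoprotein that can move to the nucleus and take part in caspase-independent death, was higher in 5 of 5 pairs. It read 7.47, 7.59, 7.11, 7.27 and 7.32 in control replicates 1 to 5 and 7.54, 7.75, 7.29, 7.46 and 7.54 in mye-macrophages. The groups overlapped and the difference of 0.16 did not pass (95% interval 0.02 to 0.31, adjusted p = 0.196). Diablo, the antagonist of XIAP, showed -0.08 (95% interval -0.23 to 0.07), and the mitochondrial nuclease gene Endog showed -0.13 (-0.37 to 0.11), with -0.03 without replicate 2 and -0.22 without replicate 3.

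Xiap, whose protein binds and blocks active caspases, had the lowest log2 difference of all members. Probe set 1379555_at read 7.34, 7.04, 7.17, 6.86 and 7.02 in control replicates 1 to 5 and 6.61, 6.80, 7.05, 6.41 and 6.22 in mye-macrophages. All 5 pairs were lower in mye-macrophages, by a wide margin in replicates 1 and 5 and by a narrow one in replicate 3, and the groups overlapped. The difference was -0.47 (standard error 0.11, 95% interval -0.71 to -0.23, adjusted p = 0.0523), just above the threshold. It was -0.56 with an adjusted p of 0.0260 without replicate 3, and -0.35 with an adjusted p of 0.336 when the beta-actin gap was added. Probe set 1369248_a_at, with lower signals, gave -0.19 (95% interval -0.53 to 0.14, adjusted p = 0.510), and -0.39 with an adjusted p of 0.0378 in limma without replicate 3, but 0.0063 with the beta-actin gap added. Birc3, the NF-κB-induced ubiquitin ligase cIAP2, was lower in 5 of 5 pairs by a mean of 0.13 without passing (log2 difference -0.13, 95% interval -0.29 to 0.03). Birc2 and Birc5 (survivin) did not pass and Birc7 lay outside the variance filter, with differences of either sign among these genes.

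The death receptor adaptors did not pass on any of 4 probe sets, with differences between -0.05 and 0.13. Cflar on 1379919_at gave 0.13 (95% interval -0.05 to 0.32), or 0.07 without replicate 1 and 0.05 with the beta-actin gap added, and Fadd and Tradd were nearer to 0. Casp8ap2, whose protein was named for its association with caspase-8 and also serves histone mRNA processing, gave -0.20 on 1393803_at, outside the variance filter (95% interval -0.54 to 0.14), where mye-macrophage replicate 1 stood at 4.50 and the other mye-macrophages between 5.21 and 5.40. Without replicate 1 this difference was 0.0082.

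Casp6, an executioner caspase that cleaves nuclear lamins, was higher in 5 of 5 pairs, but each time by little. It read 4.75, 4.08, 4.86, 5.05 and 4.91 in control replicates 1 to 5 and 4.96, 4.20, 4.98, 5.24 and 4.98 in mye-macrophages (log2 difference 0.14, 95% interval -0.01 to 0.28, adjusted p = 0.270). Casp4 (caspase-11 in rodents), which senses intracellular lipopolysaccharide, gave 0.09 (95% interval -0.14 to 0.31), with 0.01 without replicate 1 and 0.19 without replicate 2, and Casp12 and Casp16 lay outside the variance filter.

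Bnip3, a mitochondrial protein induced by hypoxia that promotes the removal of mitochondria, had the highest log2 difference of all members, 0.27, with a wide interval (95% interval -0.04 to 0.58, adjusted p = 0.308). Its control values were 7.79, 7.74, 7.83, 8.32 and 7.90 and its mye-macrophage values 8.55, 8.44, 7.69, 8.43 and 7.83. It was higher in 3 of 5 pairs, with replicates 1 and 2 far apart and replicates 3 and 5 slightly in the other direction. The difference was 0.15 without replicate 1, 0.16 without replicate 2 and 0.03 once the beta-actin gap was added. Its relative Bnip3l had differences of either sign on 2 probe sets, neither of which passed. Bcl2l14 gave 0.21 (95% interval -0.04 to 0.45, adjusted p = 0.329), with 0.13 without replicate 1, 0.32 without replicate 3 and 0.08 with the beta-actin gap added.

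Other apoptosis genes, which the symbol rule does not take, were read from a list of 44 genes, of which 41 had a probe set. On 55 probe sets, 28 of them in the variance filter, 3 fell and none rose. This is 10.7% of those in the filter, beside 2.69% of all filtered probe sets in either direction and 1.90% that passed as lower. The list was chosen with earlier results of these data known, so no excess is read from this share. The difference had the same direction in 5 pairs on 12 of the 55 (21.8%), and the median over these genes was -0.02. The genes that fell were the cytokine Tnf, the receptor-associated Traf1 and Cidea.

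Tnf, the ligand of the death receptor pathway and a main product of activated macrophages, read 7.97, 6.73, 8.31, 7.98 and 7.73 in control replicates 1 to 5 on 1391384_at and 7.85, 6.05, 7.73, 7.42 and 7.31 in mye-macrophages. It fell by 0.47 on the log2 scale (standard error 0.09, adjusted p = 0.0305 in the blocked limma fit), and each of the 5 pairs had this direction. Replicate 2 was lowest in both groups, and the groups overlapped. A second Tnf probe set, with lower signals, gave -0.05 (95% interval -0.23 to 0.13) and was near 0 without replicate 3.

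Traf1, an NF-κB-induced adaptor that binds cIAP1 and cIAP2, read 5.47, 4.91, 5.35, 5.33 and 5.49 in control replicates 1 to 5 on 1381441_at and 4.96, 4.40, 4.94, 5.26 and 4.70 in mye-macrophages. It fell by 0.46 on the log2 scale (standard error 0.10, adjusted p = 0.0443 in limma), while its other probe set gave 0.19 (95% interval -0.04 to 0.42, adjusted p = 0.325). Traf1 was therefore not lower on both probe sets.

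Cidea, a lipid droplet protein of the family first named for DNA fragmentation factor homology, read 5.96, 5.77, 5.45, 4.80 and 5.32 in control replicates 1 to 5 and 5.57, 5.45, 5.15, 4.28 and 5.17 in mye-macrophages. It fell by 0.34 on the log2 scale in the blocked limma fit (standard error 0.07, adjusted p = 0.0473), with replicate 4 lowest in both groups. Cidea did not pass without any one of the 5 replicates (adjusted p of 0.0592 to 0.147 in limma), nor after renewed quantile normalization (0.0634) or with a filter on dim probe sets (0.0507). Bbc3, which encodes the BH3-only protein Puma, was lower in 5 of 5 pairs without passing (log2 difference -0.29, standard error 0.07, adjusted p = 0.0588). It read 6.42, 6.91, 6.63, 5.75 and 6.60 in control replicates 1 to 5 and 6.12, 6.55, 6.22, 5.59 and 6.39 in mye-macrophages, and was named after its values were seen. Without the block, Tnf, Traf1 and Cidea had adjusted p-values of 0.907, 0.585 and 0.908 in limma, and once the beta-actin gap was added 0.111, 0.289 and 0.251.

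**Figure D3:**
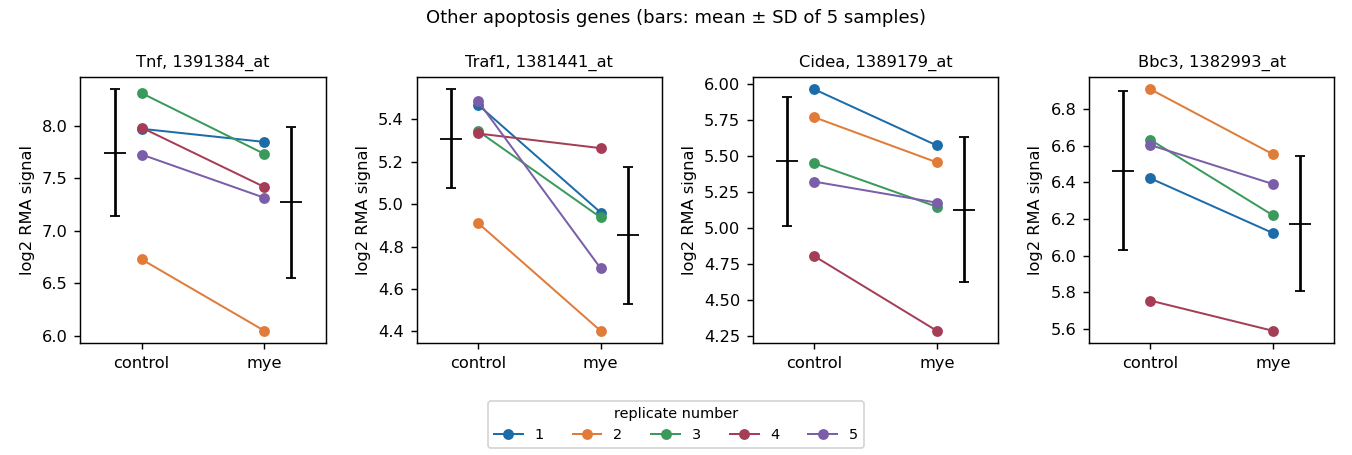
Log2 RMA signal (vertical axis, one scale per panel, not starting at 0) of Tnf, Traf1, Cidea and Bbc3 in 5 control and 5 mye-macrophage samples, with lines joining samples of the same replicate number and bars giving mean ± SD. All lines run downward, and the replicates of a group lie farther apart than the group means.

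The members also differed between replicate numbers. The median range of the 5 pair means was 0.38 on the log2 scale, beside 0.31 over all probe sets. The widest contrast lay between replicate numbers 2 and 4, which were singled out after their values were seen, so that the values below are a description with no test. Both arrays of number 4 lay above both arrays of number 2 on 20 member probe sets (35.7%, beside 29.2% of all probe sets), and the reverse held on 17 (30.4%, beside 26.9%). Among probe sets above the median of all values, the first order held on 39.5% of the members and 32.3% of all. The reverse held there on 39.5% and 39.1%. What the numbers stand for is not given in the sources used here.

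Markers of several cell types differed between the same numbers. In control and mye-macrophages, Cpa3, a protease of mast cells, read 3.19 and 2.83 in number 2 and 7.92 and 7.99 in number 4, and Fcer1a, the mast cell receptor for IgE, read 1.20 and 1.47 against 5.69 and 5.77. Dcn, a matrix gene of fibroblasts, read 2.49 and 2.63 against 6.22 and 6.29, and the macrophage gene Cd14 read 9.54 and 9.87 against 11.72 and 11.61. Other genes of these lists did not follow. The collagen genes Col1a1 and Col3a1, listed with Dcn, lay below the median of all values, and their arrays of numbers 2 and 4 overlapped. Krt19 of the same list, and Lyz2 and Mertk of the macrophage list, were higher in number 2. Of the measured markers, 4 of 5 of granulocytes and mast cells, 6 of 8 of macrophages, 2 of 5 of mesothelial cells and fibroblasts and 2 of 6 of T, B and NK cells were higher in number 4, while 0, 2, 1 and 3 were higher in number 2. The list mean of granulocytes and mast cells was 1.55 and 1.71 in number 2 and 4.07 and 4.12 in number 4, and that of macrophages 7.35 and 7.39 against 8.18 and 8.40. The part of these cell types in the differences of the members between these numbers was not tested.

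By role, 7 of the 10 pro-survival probe sets were higher in number 4 and none in number 2, and the 7 read Bcl2, Bcl2a1, Bcl2l1, Bcl2l2 and Mcl1. Of all probe sets, 29.2% were higher in number 4 and 26.9% in number 2. Of all those above the median of all values, these shares were 32.3% and 39.1%. Of the 9 BH3-only probe sets, 4 were higher in number 2 and none in number 4, and the 4 read Bcl2l11, Bad and Bid. Among the initiator caspases 4 of 7 were higher in number 2 and 1 in number 4, and the apoptosome and mitochondrial factors had 3 of 5 higher in number 2 and none in number 4. Of the 4 probe sets of death receptor adaptors, 3 were higher in number 4, both of Cflar among them. Each role holds few probe sets, several of which read the same gene, and a pattern by role was not tested.

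Cflar on 1368545_at, the member with the widest range, read 6.45, 5.52, 6.79, 7.40 and 6.47 in control replicates 1 to 5 and 6.87, 5.68, 6.58, 7.34 and 6.22 in mye-macrophages. Number 4 lay 1.77 above number 2 on the log2 scale, while mye-macrophages and control macrophages differed by 0.02 (95% interval -0.21 to 0.25), a difference whose sign turned with array weights, with the beta-actin gap added, or without replicate 1 or 2. Casp4 read 6.66, 6.02, 6.68, 7.09 and 6.19 in control replicates 1 to 5 and 7.05, 5.68, 6.90, 7.26 and 6.19 in mye-macrophages, 1.33 higher in number 4 than in number 2. Both genes were lowest in number 2 in either group. The same contrast was 1.00 for Casp6, 0.78 for Birc3 and 0.57 for Bcl2a1. In the other direction it was -0.97 for Bcl2l11 on 1388742_at, -0.78 for Birc2, -0.65 for Bak1 and -0.56 for Casp8 on 1380297_at.

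**Figure D4:**
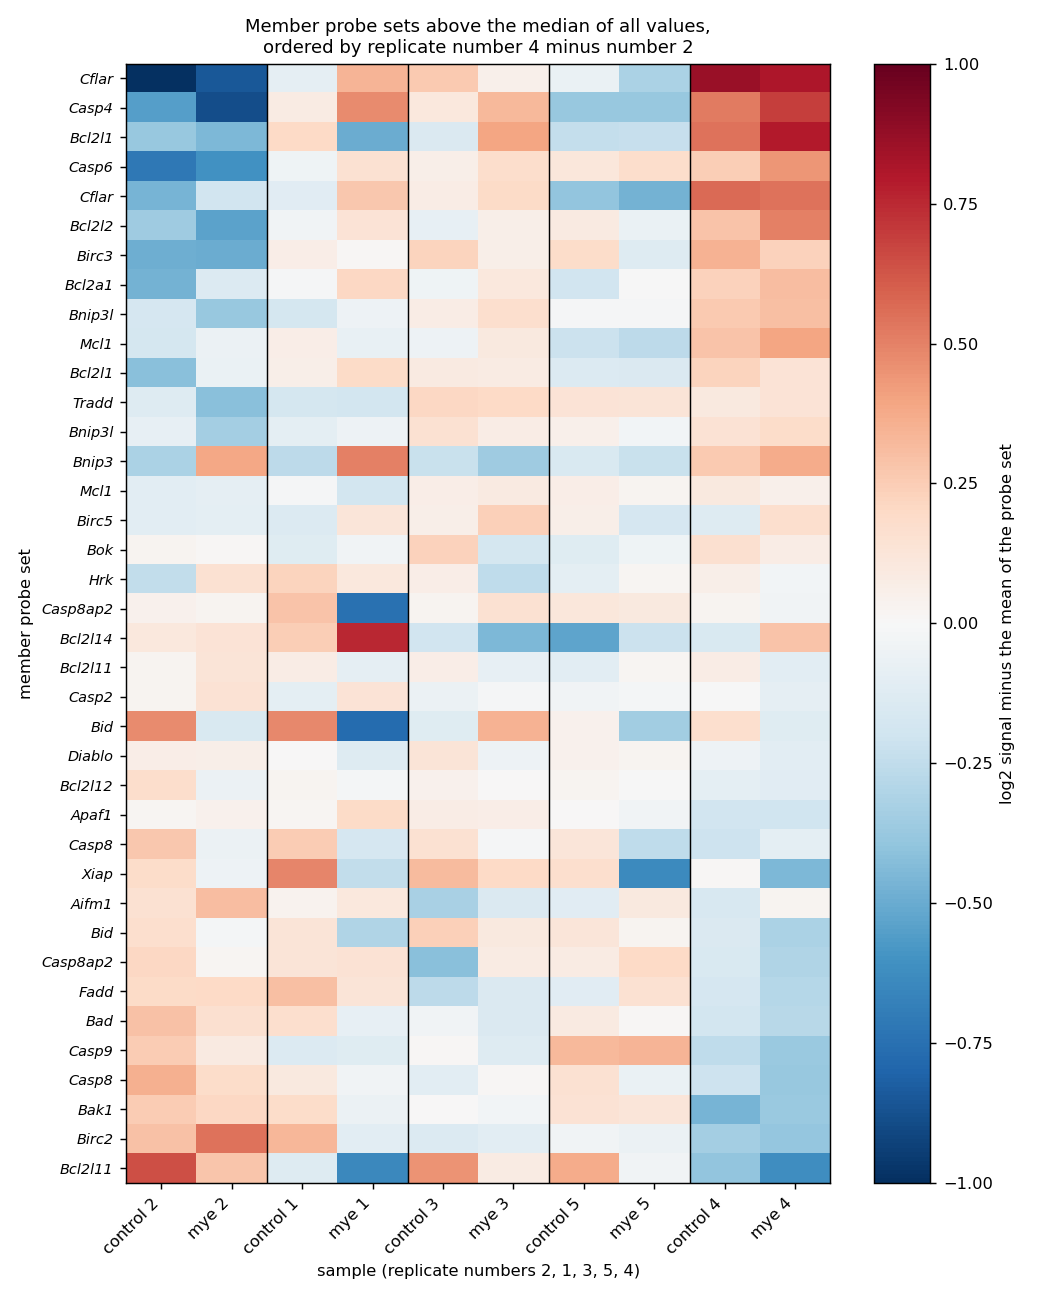
Log2 signal of the 38 member probe sets above the median of all values, as the difference from the mean of the probe set (colour, limited to 1 either way), in 10 samples set in the order of replicate numbers 2, 1, 3, 5 and 4. Neighbouring columns between the black lines share a replicate number, with Cflar, Casp4 and Casp6 high in number 4 and Bcl2l11, Birc2 and Bak1 high in number 2.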

How the data were processed

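Peritoneal macrophages of 5 control and 5 mye-macrophage samples were measured on 1 array each. The authors deposited log2 values per probe set after RMA (affy package), with replicates kept apart and no probe set removed. Of 31099 probe sets, 57 Affymetrix controls were dropped. Genes were named by the array annotation where it gives 1 symbol (20826 probe sets), and all 39 member symbols matched RefSeq. The members and lists were chosen with earlier results of these data known.

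The comparison used limma (version 3.58.1, R 4.3.3; lmFit and eBayes) with replicate number as block, and Benjamini-Hochberg adjustment ran over the 50% of probe sets of larger interquartile range (threshold 0.05). The methods name an unpaired test, so the fit without the block was the first alternative. The block comes from the numbers in the labels: deviations from group means correlated at 0.404 to 0.791 within a number and at most at 0.279 across numbers, and all 10 samples correlated best with their own number. For arrays the number of samples limits precision. Full values are given for members that passed or did not overlap, filled up to 12 by lowest p, for all probe sets of a gene with a call, and for list genes that passed. Bbc3, and Cflar and Casp4 by sample, were added after their values were seen. Alternatives covered the block, filter, scaling, array weights, variance prior, beta-actin gap, the methods' t-test and each replicate number left out.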

Additional observations from a re-analysis of the deposited data

Results flagged for a closer look

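Of 118 groups of 5 samples, 9 (7.63%) held a sample far from the other 4, where chance flags about 1 in 20 groups, so that no pattern is read from them. In control replicate 5, Casp2 1367891_a_at stood at 0.612 (the others between 0.842 and 0.900), Bcl2l11 1370787_at at 2.30 (2.43 to 2.48) and Bcl2l1 1369180_at at 1.47 (1.31 to 1.35). In control replicate 4, Apaf1 1369197_at stood at 6.55 (6.74 to 6.81) and Bnip3 at 8.32 (7.74 to 7.90). Traf1 1381441_at was 4.91 in control replicate 2 (5.33 to 5.49), and Casp9 1388083_a_at was 2.43 in control replicate 3 (2.20 to 2.26). Casp6 was 4.20 in mye-macrophage replicate 2 (4.96 to 5.24), and Casp8ap2 1393803_at was 4.50 in mye-macrophage replicate 1 (5.21 to 5.40).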

How the results depend on the processing

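The member count of 1, the count of 3 among the other apoptosis genes and the count of 418 over all probe sets (123 higher, 295 lower) became 0, 0 and 0 in limma without the replicate block and 0, 0 and 0 under the methods' t-test after Benjamini-Hochberg adjustment (before adjustment, 5, 4 and 1385, and 4, 3 and 1437 were under 0.05). Without the variance filter they were 0, 0 and 128, on adding the beta-actin gap 0, 0 and 16 (5, 6 and 2133 unadjusted), and with a trended and robust prior 5, 8 and 1041. The members called by the latter were Bcl2l11 on 1388742_at and 1387338_s_at, Xiap, Bid 1377759_at and Bcl2a1. Array weights and median subtraction each gave 2 members, Bcl2l11 and Xiap. Leaving out each replicate number in turn gave 0 to 4 members, 0 to 1 of the other genes and 31 to 659 probe sets. Without replicate 3 the 4 members were Bcl2l11, Xiap on both probe sets and Bid 1369683_at, and 659 probe sets passed, while without replicates 1, 2, 4 or 5 no member passed and 31, 42, 72 and 38 probe sets did. Without replicate 2 or 5 none of the other apoptosis genes passed. The member median of -0.0068 ranged from -0.043 (without replicate 5) to -0.00042. The beta-actin gap difference ranged from 0.135 to 0.392 with a replicate number left out, and its p was 0.190 in a two-sided exact permutation test over samples. The causes of these changes were not tested.

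Of 476 values of 34 individually given probe sets under 14 alternatives, 421 kept direction and side of the threshold, 35 lost the call, 10 gained one and 10 turned sign. Those were Xiap 1369248_a_at (0.0063 with the gap added), Casp9 1370737_at (0.0038 without replicate 3 and 0.00064 without replicate 4, with a range from -0.059 to 0.0038 over the 5 replicates left out) and Casp8ap2 1393803_at (0.060 with the gap added and 0.0082 without replicate 1, with a range from -0.28 to 0.0082), as well as Cflar 1368545_at (-0.022 with array weights, -0.14 with the gap added, and -0.088 to 0.082 with a replicate left out, below 0 without replicate 1 or 2) and the second Tnf probe set (-0.12 to 0.00014, above 0 without replicate 3). Bcl2l11 1388742_at stayed between -0.41 and -0.34 with a replicate number left out, with adjusted p-values of 0.0378 to 0.0984 in limma. Differences of the size seen here rest on 5 pairs, and dim probe sets such as Casp9 1388083_a_at lie below the median of all values.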
